A study of Rattus norvegicus with 4 samples.

Results

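The 24 h and 3 h libraries of angiotensin II (Ang II) treated rat aortic smooth muscle cells were set against each other, 2 of the 4 small RNA libraries of the study, to see which small RNAs kept their 3 h level, returned towards the untreated level or first moved late. Each library was made from cultured vascular smooth muscle cells of Sprague-Dawley rats, grown in M199 with 10% FBS and then depleted of serum for 48 h. The 3 h and 24 h cells received 100 nM Ang II for those times. The remaining libraries, 1 from untreated cells and 1 from cells given 100 nM Ang II for 1 h, are used here for their levels only. There was 1 library for each group, so no difference below has a replicate check and no test was made. The untreated library carries no time of its own, so an effect of Ang II and one of the hours in culture cannot be told apart. The labels do not name the donor animals or the passage of the cells.

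Ang II is the peptide hormone of the renin-angiotensin system that contracts vascular smooth muscle and drives its growth through the AT1 receptor. MicroRNAs (miRNAs) are short RNAs cut from hairpin precursors. They bind messenger RNAs mainly through the seed, the bases near their 5′ end, and lower the output of those messengers. Smooth muscle cells of the vessel wall are known for the miR-143/145 pair, which goes with the contractile state, and for miR-21 and miR-221/222, which go with the proliferative, synthetic state.

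The 3 h library held 14370167 reads and the 24 h library 14534892. Of these, 74.4% and 71.9% began like a mature rat miRNA in RefSeq, against 68.4% in the untreated and 72.8% in the 1 h library. Reads were found for 406 of 692 mature sequences, and 172 had at least 100 reads in 1 of both libraries. Levels are in RPM, the reads of a feature for each 1000000 reads that name a sequence, and a miRNA was counted as higher or lower at 24 h where the 2 levels, each with 1 RPM added, differed by at least 1.5-fold. Intervals beside ratios are exact, at 95%, and for counting error alone, since copies made by PCR are not independent molecules. The pair that defines the tissue was present, with miR-143-3p at 309959 RPM at 3 h and 305533 RPM at 24 h. Endothelial miR-126 (both arms) summed to 125.5 and 104.9 RPM. Blood markers summed to 1.32 and 0.894 RPM, with 5 of the 8 found in RefSeq at 0. The 3 h library stood apart from the rest in its technical tags: of the reads that hold 3′ adapter, 79.8% were 20 to 27 nt long, against 17.9% at 24 h, 17.5% untreated and 12.1% at 1 h, and reads with a run of 12 A made up 0.0270% at 3 h and 0.0991% at 24 h. In such bulk RNA, fewer cells of a type and less of an RNA per cell cannot be told apart.

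At 24 h 6 miRNAs were higher than at 3 h (3.49% of the 172) and 19 were lower (11.0%). The median over all 172 was -0.19 on the log2 scale, and 123 of the 172 lay below 0. The 10 most read miRNAs held 86.8% of the miRNA reads at 3 h and 87.3% at 24 h, and none of them was past the limit. Scaled with TMM factors, which set the bulk of the miRNAs near no change, the median was 0.02, and the calls were 10 higher and 6 lower, so the higher ones made up 62.5% of the calls in place of 24%. The 6 higher and 6 of the 19 lower miRNAs kept their call under that scaling. For 14 of the 25 calls, 4 higher and 10 lower, the whole counting interval of the ratio lay past 1.5-fold.

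**Figure D1:**
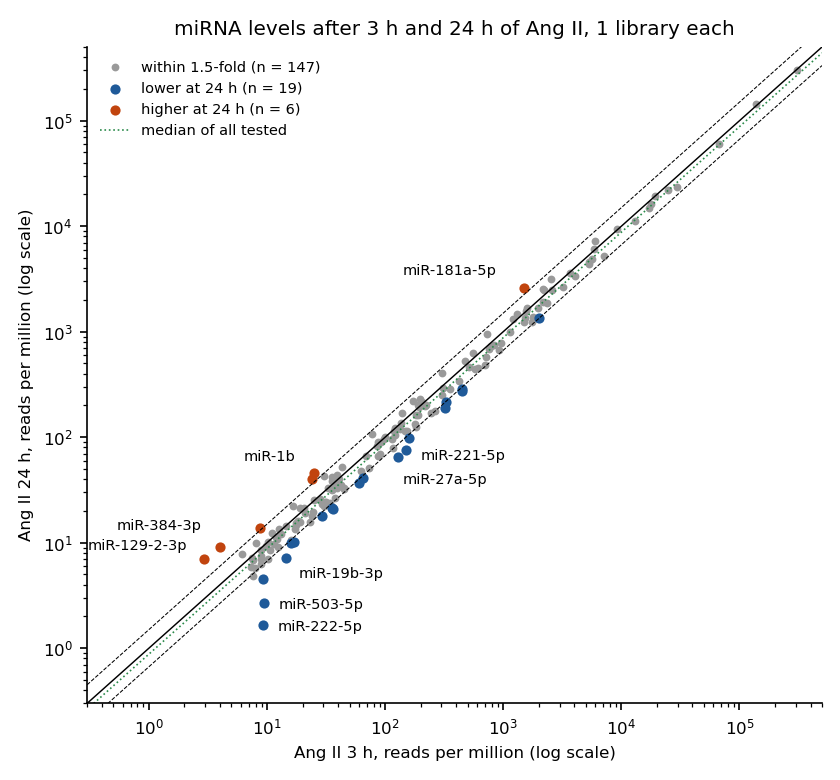
Each point is 1 of 172 miRNAs by its level at 3 h (x axis) and 24 h (y axis), both in RPM on log scales; dashed lines mark 1.5-fold, the solid line equality and the dotted line the median ratio. Red points are the 6 miRNAs higher at 24 h and blue points the 19 lower ones, and most grey points lie just under the line of equality.

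The miRNAs on which the comparison turns are printed 5′ to 3′ as RefSeq gives them for the assembly GRCr8, with the seed (bases 2 to 8) in capitals. They are shown so that the seeds of the miRNAs that moved can be set side by side. The first 6 were higher at 24 h, and the next 10 were lower. The last 2 were above the untreated level at both times, which for miR-29b-3p held at 24 h alone when scaled to miRNA reads.
miR-129-2-3p: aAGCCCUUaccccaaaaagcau
miR-384-3p: aUUCCUAGaaauuguucacaau
miR-1b: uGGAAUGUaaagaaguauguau
miR-181a-5p: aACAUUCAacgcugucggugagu
miR-664-3p: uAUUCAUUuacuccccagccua
miR-183-5p: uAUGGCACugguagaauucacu
miR-222-5p: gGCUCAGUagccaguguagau
miR-221-5p: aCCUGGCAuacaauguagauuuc
miR-503-5p: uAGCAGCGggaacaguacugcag
miR-15b-5p: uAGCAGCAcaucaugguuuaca
miR-27a-5p: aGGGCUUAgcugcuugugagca
miR-20a-5p: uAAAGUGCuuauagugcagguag
miR-106b-5p: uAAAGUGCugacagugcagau
miR-18a-5p: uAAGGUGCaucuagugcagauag
miR-19b-3p: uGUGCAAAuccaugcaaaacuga
miR-542-3p: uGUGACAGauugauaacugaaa
miR-132-3p: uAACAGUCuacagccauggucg
miR-29b-3p: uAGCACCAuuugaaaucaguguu
Among these, miR-20a-5p and miR-106b-5p have the same seed, AAAGUGC. The seeds of miR-15b-5p and miR-503-5p, AGCAGCA and AGCAGCG, end in different letters.

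Among the 6 early changes that had faded by 24 h were both 5p arms of the miR-221/222 pair. The 2 hairpins lie beside each other on the X chromosome (GRCr8 chrX:6022621-6023290, plus strand), and their 3p arms are the ones known to act on the cell cycle inhibitor p27Kip1. miR-222-5p had 25 reads in the untreated library, 40 at 1 h, 132 at 3 h and 24 at 24 h, which is 1.74, 3.05, 9.19 and 1.65 RPM. The 24 h level was 0.180 times the 3 h level (0.111 to 0.279) and close to the untreated one. Most of its reads ended 1 base past the mature end: the tag ggctcagtagccagtgtagatc had 85 and 15 reads, the mature sequence alone had 5 and 3, and that sequence counted alone gave -0.16 on the log2 scale and no call. miR-221-5p stood at 62.2 RPM untreated, 131 RPM at 1 h, 151 RPM at 3 h and 75.6 RPM at 24 h, a ratio of 0.499 (0.464 to 0.537) from 2176 and 1099 reads. Both arms were thus high in the 3 h library and near the untreated level in the 24 h library. Their 3p arms did not move with them: miR-221-3p had 174 RPM at 3 h and 219 RPM at 24 h, and miR-222-3p had 140 and 169 RPM, both within 1.5-fold. Most reads of miR-221-5p ended 3 bases past the RefSeq mature end. The tag acctggcatacaatgtagatttctgt alone went from 1579 to 649 reads, while the tag identical to the mature sequence had 30 and 33 reads, so that sequence counted alone gave 0.08 on the log2 scale and no fall.

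In the miR-181 family, known from lymphocytes and from vascular inflammation, miR-181a-5p and miR-181b-5p had the opposite early course. miR-181a-5p stood at 2804 RPM untreated, 1937 RPM at 1 h, 1497 RPM at 3 h and 2600 RPM at 24 h. From 3 h to 24 h it rose 1.74-fold (1.71 to 1.77), from 21508 to 37797 reads, and it was the most read miRNA past the limit in the upward direction. miR-181b-5p followed the same order of levels, with 18688 reads untreated, 11445 at 1 h, 10575 at 3 h and 13692 at 24 h. Its ratio of 1.28 (1.25 to 1.31) stayed within the limit. Of the 4 family members with 100 reads, which all share the seed ACAUUCA, 3 were above 0 and 1 was higher by the rule. Their median was 0.26. Over all 172 miRNAs 49 were above 0 and 3.49% were higher. miR-181c-5p and miR-181d-5p were not past 1.5-fold below the untreated level at 3 h. Of the opposite arms, miR-181a-1-3p and miR-181c-3p were past it at 3 h and did not return. miR-181a-1-3p had 1047 reads untreated, 514 at 3 h and 456 at 24 h, and miR-181c-3p had 229, 127 and 123.

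Among the miRNAs that differed from the untreated level at both times was miR-132-3p, a miRNA transcribed under the control of CREB. Its levels were 34.1 RPM untreated, 31.3 RPM at 1 h, 85.5 RPM at 3 h and 82.8 RPM at 24 h. The 24 h level was 0.969 times the 3 h level, with an interval from 0.894 to 1.05. miR-132-3p was thus near the untreated level at 1 h and equally high at the later times. miR-29b-3p, of the family that targets collagens, had 120 RPM untreated, 157 RPM at 1 h, 192 RPM at 3 h and 193 RPM at 24 h. miR-129-5p was already at 89.9 RPM at 1 h, from 33.2 RPM untreated, and had 90.7 RPM at 3 h and 69.1 RPM at 24 h. The ratio of 0.761 (0.700 to 0.827) leaves it at 2.08 times the untreated level. miR-21-3p, the less read arm of the miR-21 hairpin, had 17.6, 44.4, 44.5 and 32.1 RPM in the same order. Lower at both times was miR-877, with 669 reads untreated, 449 at 1 h, 416 at 3 h and 336 at 24 h.

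Counted over the 172 miRNAs with the untreated library as the reference for reading, 3 were above it at 3 h and back within 1.5-fold at 24 h, and 3 were below it and back. Another 4 were above it and 3 below it at both times, 5 were above it and 22 below it at 24 h but not at 3 h, and 132 were within 1.5-fold at both times. These counts share the 3 h and 24 h libraries with the main comparison and add no independent evidence to it. Many of these miRNAs crossed the limit against the untreated library without a call between 3 h and 24 h. That held for 13 of the 22 late falls and 1 of the 5 late rises. It also held for 1 of the 3 early rises and 2 of the 3 early falls that returned. The late falls depend on the scale: the median of the 172 was -0.04 at 3 h and -0.23 at 24 h against the untreated library, and after centring each on its median only 6 of the 22 late falls were left, namely miR-351-5p, miR-497-5p, miR-503-3p, miR-503-5p, miR-93-5p and miR-99a-3p. The same centring left miR-221-5p, miR-222-5p, miR-181a-5p and miR-132-3p in their classes.

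**Figure D2:**
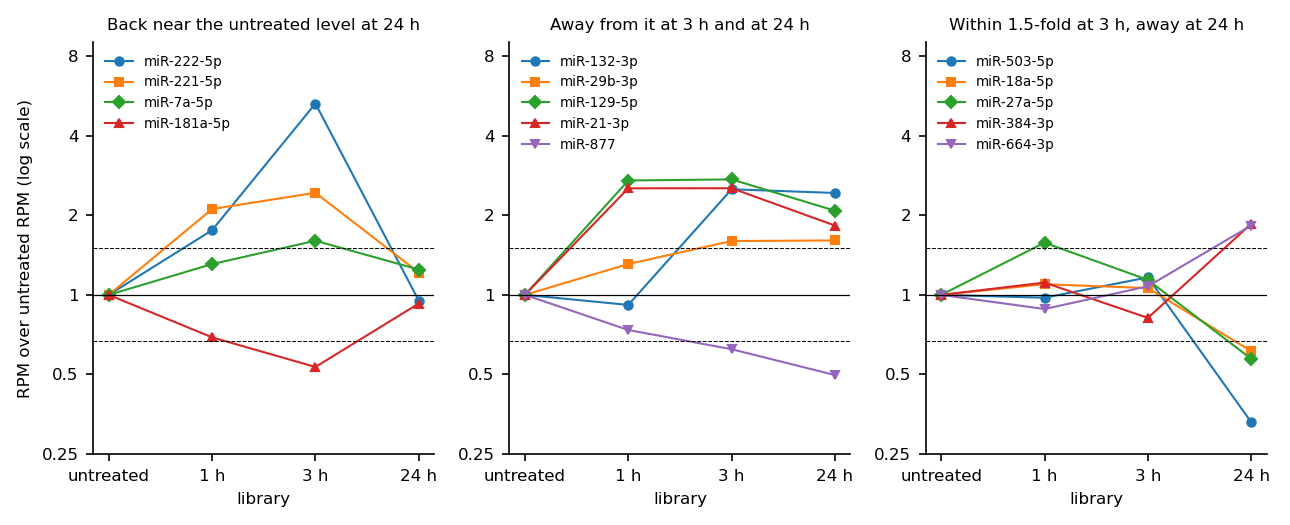
Levels in the 4 libraries relative to the untreated library (y axis, log scale), 1 line per miRNA and 1 library per point; dashed lines mark 1.5-fold. On the left miR-222-5p peaks at 5.29 times the untreated level at 3 h and returns, in the middle miR-132-3p keeps its 3 h level, and on the right miR-503-5p drops in the 24 h library alone.

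Of the 19 lower miRNAs, 8 belonged to 3 groups, of which the first 2 are known for acting on the cell cycle. The miR-17-92 cluster and its paralogs, which promote proliferation in many cell types, had 8 members with 100 reads. All 8 were below 0 and 4 were lower by the rule, beside 123 of 172 below 0 and 11.0% lower over all miRNAs. Their median was -0.62, beside -0.19 over all 172. miR-20a-5p had 5778 reads untreated, 5166 at 1 h, 6407 at 3 h and 3952 at 24 h, a ratio of 0.610 (0.586 to 0.635). miR-106b-5p went from 6474 to 4140 reads, a ratio of 0.632 (0.608 to 0.657), and both stood near 402 RPM in the untreated library. miR-18a-5p fell from 36.3 to 21.0 RPM and miR-19b-3p from 14.5 to 7.22 RPM. The members within the limit were all lower too, and miR-17-5p (3809 and 2589 reads, log2 difference -0.57) lay just inside it. Under TMM scaling 7 of the 8 stayed below 0, the median was -0.40 and miR-19b-3p alone was lower by the rule. The 6 hairpins of the cluster itself lie within chr15:98587848-98588632 (GRCr8, plus strand). The 3 lower ones among its 6 measured products were miR-18a-5p, miR-19b-3p and miR-20a-5p. Of these products, miR-19b-3p, miR-17-5p and miR-92a-3p can also come from a cluster at chrX:137342777-137343647 (GRCr8, minus strand).

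The miR-15/16 family, which represses cyclins and restrains entry into the cycle, moved the same way. Of its 6 members with 100 reads, all were below 0 and 2 were lower, with a median of -0.57, beside 123 of 172 below 0 and 11.0% lower over all miRNAs. miR-503-5p had 117 reads untreated, 104 at 1 h, 136 at 3 h and 39 at 24 h, a ratio of 0.284 (0.193 to 0.407). miR-15b-5p had 2285, 1895, 2298 and 1437 reads in that order, a ratio of 0.618 (0.578 to 0.661). For both the 3 earlier libraries were alike and the 24 h library was low. miR-16-5p, the most read member, went from 8233 to 6414 reads and stayed within the limit. Members of a group known to promote the cycle and of one known to restrain it were thus both lower. With TMM scaling 5 of the 6 stayed below 0, and miR-503-5p alone was lower by the rule.

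Another group overlaps the family: the cluster of miR-322, miR-503, miR-351, miR-542 and miR-450 on the X chromosome (chrX:137720933-137726241, minus strand, GRCr8), whose first members are induced when muscle cells leave the cycle. All 8 products measured from its 6 hairpins were below 0, with values from -1.51 to -0.45 and a median of -0.56. By the rule 3 were lower. Over all miRNAs 123 of 172 were below 0 and 11.0% were lower. miR-542-3p went from 320 to 189 RPM, a ratio of 0.591 (0.564 to 0.620). miR-351-5p went from 35.4 to 21.1 RPM, a ratio of 0.597 (0.517 to 0.690). miR-322-5p, with 2628 and 1801 reads, lay just inside the limit. With TMM scaling every one of the 7 members on the list was still below 0, and miR-503-5p alone passed 1.5-fold.

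Other lower miRNAs lay outside the groups above. miR-27a-5p, the less read arm of a hairpin in the miR-23a/27a/24-2 cluster, had 1630 reads untreated, 2340 at 1 h, 1854 at 3 h and 943 at 24 h, a ratio of 0.503 (0.464 to 0.544). Its partner arm miR-27a-3p was at -0.04 on the log2 scale. The most read of the 19 was miR-378a-3p, which is cut from an intron of the Ppargc1b gene. It went from 2007 to 1337 RPM, and its ratio of 0.666 (0.654 to 0.678) lies right at the limit, as does miR-425-5p at 0.665. Still others were miR-99a-3p, miR-3559-5p, miR-190a-5p, miR-152-5p, miR-6329 and miR-24-1-5p, between -0.88 and -0.62.

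Apart from miR-181a-5p the higher miRNAs were rare ones. miR-129-2-3p had 24 reads untreated, 42 at 3 h and 103 at 24 h, a ratio of 2.43 (1.68 to 3.56). miR-384-3p had 4.93, 4.04 and 9.15 RPM in those libraries, a ratio of 2.27 (1.65 to 3.14). Both are best known from the brain. miR-129-2-3p is on the list of neural markers, of which 5 had 100 reads; that whole list summed to 180 RPM at 3 h and 150 RPM at 24 h, so its sum was not higher, and 2 of its 13 members in RefSeq were at 0. The part of other cell types in these values was not tested. miR-1b went from 360 to 663 reads, a ratio of 1.82 (1.60 to 2.08), while miR-1-3p, which has the same seed, GGAAUGU, had 1401 and 1406 reads. miR-664-3p went from 343 to 589 reads. miR-183-5p went from 8.70 to 13.8 RPM, and its cluster neighbour miR-182, known with it from sensory organs, from 30.2 to 43.3 RPM, a ratio of 1.44 (1.27 to 1.63) that stayed within the limit.

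The smooth muscle lists themselves moved little. In the contractile list none of 5 measured members passed the limit. miR-143-3p was at 0.986 times its 3 h level, miR-145-5p went from 2216 to 2463 RPM, and the list's median was 0.15. In the synthetic list 2 of 10 passed, both downwards, and these were the 5p arms of miR-221 and miR-222; over all miRNAs 11.0% were lower, and the list's count is near that share. miR-21-5p, which promotes smooth muscle proliferation, had 115983 RPM untreated, 119762 RPM at 1 h, 137104 RPM at 3 h and 145508 RPM at 24 h. The 3 inflammatory miRNAs were all above 0 and within the limit. Among them miR-146a-5p, which damps NF-kB signalling, went from 77.8 to 106.3 RPM and miR-146b-5p from 2520 to 3136 RPM. With TMM scaling miR-143-5p of the contractile list and miR-146a-5p, which is also on the synthetic list, were higher by the rule. All but 1 of the 9 let-7 members were below 0, none past the limit, with a median of -0.23, close to that of all miRNAs, and with TMM scaling 5 of the 9 were below 0. The 3 members of the miR-29 family centred on 0.01.

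**Figure D3:**
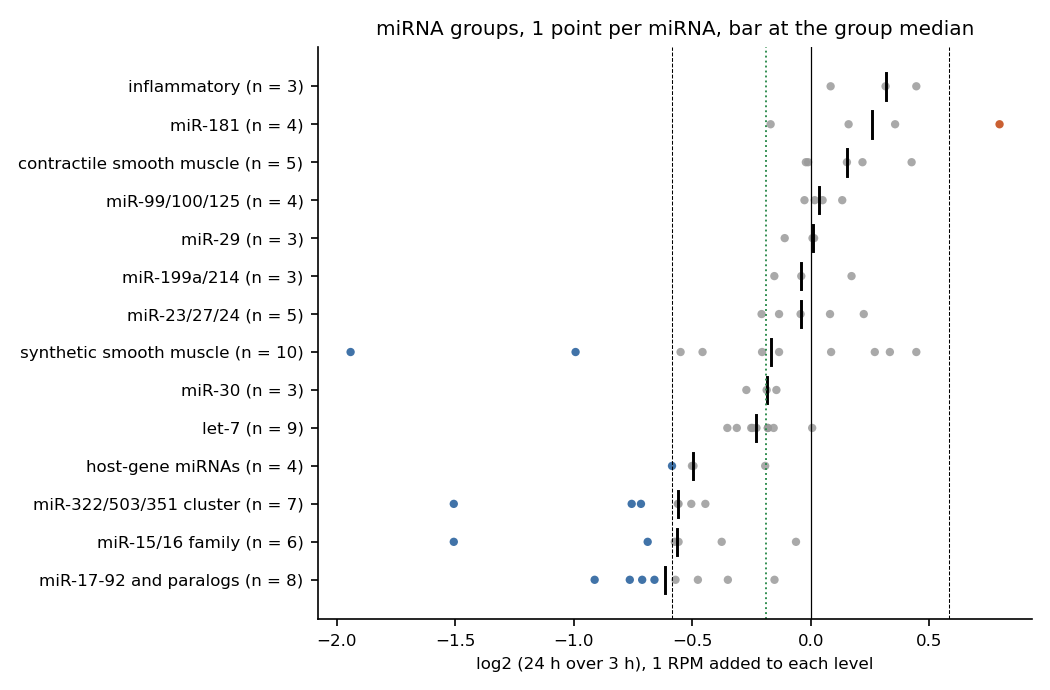
Each point is a miRNA with at least 100 reads, by its log2 difference between 24 h and 3 h (x axis) within its group (rows; a miRNA may be in more than 1); black bars are group medians, dashed lines mark 1.5-fold and the dotted line the median of all 172. The miR-17-92 and miR-15/16 groups and the miR-322 cluster lie to the left of the dotted line with medians from -0.62 to -0.56.

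Arms of 1 hairpin come from the same precursor, and the share of reads on the less read arm does not depend on how the libraries are scaled. It was compared in 42 hairpins with 100 reads on that arm in 1 library. The share was lower at 24 h in 25 of them. The odds of the less read arm against the other differed by 1.5-fold or more in 8, lower in 6 and higher in 2. In the miR-222 hairpin the 5p arm made up 1.11% of the arm reads untreated, 2.32% at 1 h, 6.15% at 3 h (5.17 to 7.25) and 0.965% at 24 h (0.620 to 1.43). In the miR-221 hairpin it made up 25.05%, 44.7%, 46.6% and 25.7% in the same order. The rise by 3 h and the return by 24 h are thus seen within the hairpin. In the miR-503 hairpin the 5p arm went from 51.3% (45.1 to 57.5) at 3 h to 29.8% (22.1 to 38.4) at 24 h, and in the miR-27a hairpin from 4.78% to 2.54%. The 3p arms of the pair of miR-181a hairpins also fell in share, beside the rise of miR-181a-5p, an arm that these hairpins have in common. In the other direction miR-129-2-3p went from 3.12% to 9.30% of its hairpin's reads, where miR-129-5p can also come from a second hairpin, and miR-384-3p from 39.5% to 53.8%.

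**Figure D4:**
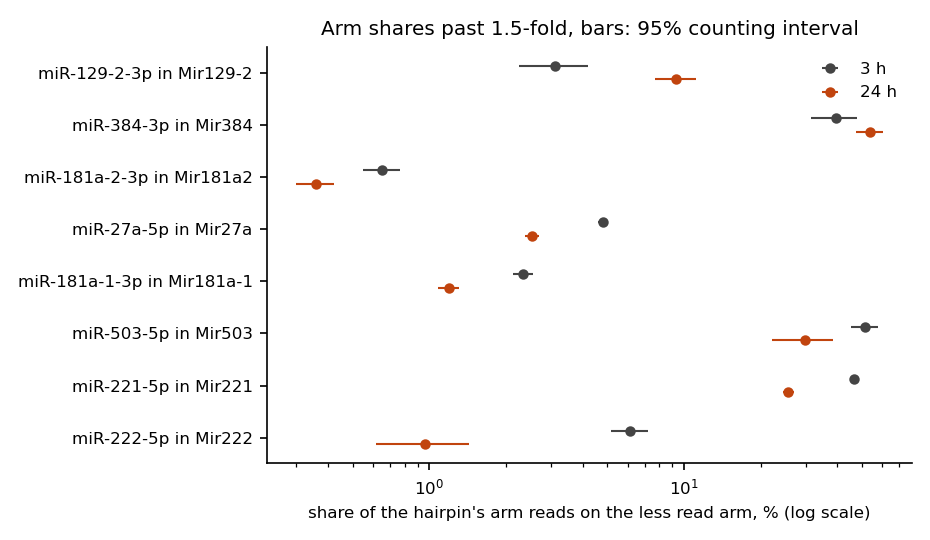
Share of a hairpin's arm reads found on the less read arm (x axis, percent, log scale) at 3 h (dark) and 24 h (red) for the 8 hairpins past 1.5-fold; bars are 95% counting intervals. The intervals of miR-222-5p, 5.17 to 7.25% and 0.620 to 1.43%, do not overlap. miR-503-5p at 3 h (51.3%) and miR-384-3p at 24 h (53.8%) were the more read arm at that time.

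Single sequences (tags) given to no miRNA moved more often than those given to one. The first set still holds miRNA forms that start elsewhere or differ by 1 base, and the reads of miR-10b-5p, most of which start before the RefSeq mature start. It also holds any reads of miRNAs not found in RefSeq, where 3 of the 5 listed miR-30 members were found. Of 4476 tags with 100 reads, 838 were higher at 24 h (18.7%) and 439 lower (9.81%). Among the 1074 given to a miRNA 47 were higher (4.38%) and 113 lower (10.5%), and among the 3402 given to none 791 were higher (23.3%) and 326 lower (9.58%). In the latter set the 1012 tags of 28 nt or longer had 424 higher and 94 lower, with a median of 0.35, and the 2390 shorter ones had 367 higher and 232 lower, with a median of -0.01. Reads of 28 to 31 nt made up 1.41% of the 3 h library and 2.49% of the 24 h library, against 1.95% untreated and 1.65% at 1 h. Reads of 32 to 33 nt made up 1.09% and 1.48%, against 2.44% untreated and 2.26% at 1 h. The 24 h library was thus above all others in the first class, and the 3 h library was lowest in both. Without tags that hold adapter, the shares of the 28 to 31 nt class that no miRNA took were 1.35% at 3 h and 2.45% at 24 h. Whether the features in which the 3 h library stood apart have a part in these shares was otherwise not tested.

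**Figure D5:**
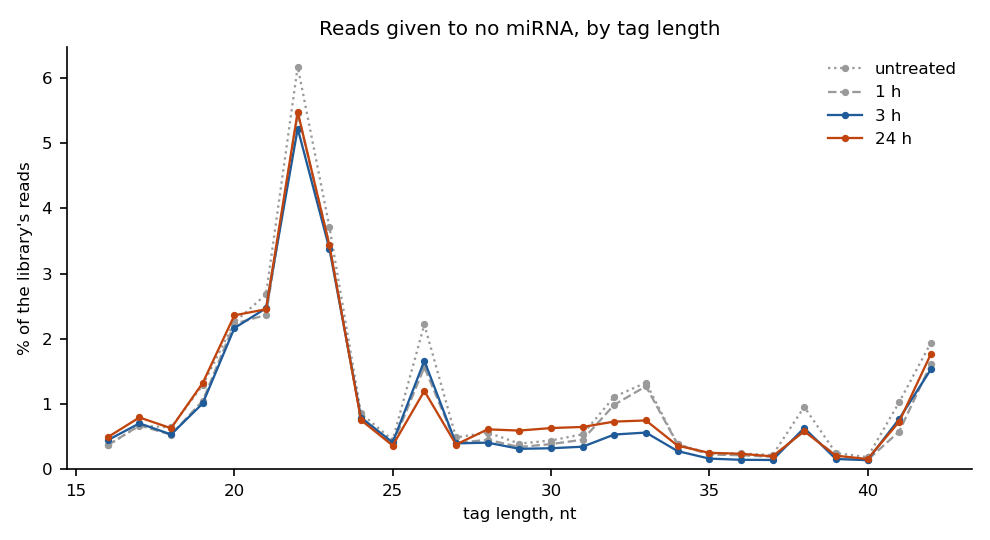
Reads given to no miRNA as a percent of all reads of each library (y axis) by tag length in nt (x axis), 1 line per library. Between 28 and 31 nt the 24 h line lies above the other 3, and at 32 to 33 nt the 3 h line is the lowest.

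The sequences of 4 starts are printed as the most read tag of each, with the 18 nt shared by all tags of the group in capitals. What part of the longer reads they make up was not measured. They are shown because these 4 groups had the largest rises among the 44 starts that had 10000 reads at 3 h or 24 h and no miRNA name. Grouping by start was chosen after values had been seen.
start 1: GCATGGGTGGTTCAGTGGtagaattctcgc
start 2: GCATTGGTGGTTCAGTGGtagaa
start 3: GCATTGTGGTTCAGTGGTagaattctcgc
start 4: GCATGTGGTTCAGTGGTAgaattctcgc
From general knowledge and not from a match to a reference, starts 1 and 2 read like the 5′ end of glycine tRNA. Starts 3 and 4 equal starts 2 and 1 with 1 and 2 bases left out. Such 5′ tRNA pieces are known to be made when a mature tRNA is cut near its anticodon. All 4 starts were higher at 24 h. Start 1 had 13571 reads untreated, 10163 at 1 h, 9255 at 3 h and 38731 at 24 h, a ratio of 4.14 (4.04 to 4.23). Start 2 had 3365, 3167, 2078 and 13366 reads, a ratio of 6.36 (6.07 to 6.66). Starts 3 and 4 had ratios of 4.78 and 6.87. For each of the 4, the 24 h library was the highest of the 4 and the 3 h library the lowest. Against the untreated library the rise at 24 h is smaller, since the 3 h level was below it.

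Of the 44 starts 10 were higher and 1 was lower, and not all of the higher ones are described here. Over all 2691 starts compared, the 44 included, 625 were higher and 182 were lower. Rises were thus about as common among the 44 as over all starts, but the 44 still hold miRNA forms that are shifted or differ by 1 base. None of the 10 higher starts reads like such a form, and the starts that do were within the limit. How many such forms each set holds was not counted. The shares therefore cannot show whether rises were more common among the remaining well read starts. The tag CGCGACCTCAGATCAGACg, which reads like the 5′ end of 28S ribosomal RNA, stood for a start with 32116 reads at 3 h and 65477 at 24 h. That tag alone went from 2557 to 22604 reads, which is most of the gain. The mean length at this start was 26.2 nt at 3 h and 23.7 nt at 24 h. A start led by CCCCGGGGGCCGGGCGGCg had 38436 reads untreated, 11940 at 3 h and 28393 at 24 h. A start led by GGCTTTGGTCTAGGGGTAtgattctcgc had 6988 and 12800 reads. The 1 lower start among the 44 was AAGCCTGTGATGAATTCAatttctgac, with 10026 reads at 3 h and 4632 at 24 h. The same sequence without its first A, with 161706 and 111761 reads, was within the limit at -0.55.

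Some single tags moved further than their start or against it. The tag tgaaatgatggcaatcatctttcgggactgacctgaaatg, of 40 nt, had 1058 reads at 3 h and 13 at 24 h, beside 11 untreated and 7 at 1 h, while its start as a whole had 10149 reads at 3 h and 12060 at 24 h. The tag gggaaatgatgatgcctatgactgct had 1118 reads at 3 h and 52 at 24 h, while its start had 135869 and 100402. The tags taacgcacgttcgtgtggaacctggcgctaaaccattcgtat and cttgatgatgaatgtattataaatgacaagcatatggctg had 336 and 323 reads at 3 h and 0 at 24 h, at least 113-fold and 109-fold lower against the 3 counts that a library at 0 allows. Each of these 4 was high in the 3 h library and at or near its 24 h level in the other libraries. On the other side cggaccaggggaatccg had 1 read at 3 h and 531 at 24 h, with 0 untreated and 1 at 1 h, a ratio of 525 whose counting interval runs from 93.8 to 20774. The tag agaacgcagctagctgc had 18, 13, 21 and 1000 reads in order of time. For gggcaccaccaggagtggagcctg they were 3, 9, 2 and 414, and for ccggtgagctctcgctggc 57, 51, 47 and 1379. Each of these rising tags was near 0 or low in 3 libraries and high in 1. Within miRNAs the largest falls were 3 long tags of miR-31a-5p, a miRNA that promotes smooth muscle proliferation. The most read of them, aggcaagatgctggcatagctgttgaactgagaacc, had 626 reads untreated, 1974 at 1 h, 1599 at 3 h and 312 at 24 h. miR-31a-5p as a whole went from 10126 to 6994 reads (-0.55) and stayed within the limit. All 5 of the largest rises among miRNA tags were forms of miR-181a-5p, such as aacattcaacgctgtcggtgag, with 480 and 1180 reads.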

How the data were processed

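The authors deposited, per sample, raw read counts of each distinct tag (16 to 42 nt) with no header. Per the labels' protocols, 0.5 ug of total RNA went into each library, 12 PCR cycles were run and 17 to 52 nt was cut from the gel. Novoalign and rn4 are named in the submitters' processing notes with no role; trimming and filters are not given in the sources used here. The row that names no sequence (5.13% of the 3 h and 6.36% of the 24 h reads) was left out.

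A tag was given to a RefSeq miRNA (GRCr8) if its first 18 nt matched the mature sequence; of several, the one with the longest match took it, and ties were split (0.0988% and 0.0823% of reads). A call needed 1.5-fold on log2((RPM + 1)/(RPM + 1)) and 100 reads in the higher library. Ratios have exact conditional binomial and shares Clopper-Pearson 95% intervals. Named were the 15 largest rises and falls past the limit (6 and 19 existed), the 10 most read miRNAs, measured list members, and the 5 tags with the largest rise and fall within and outside miRNAs; 2 of these tags hold adapter and are not printed, and of the miRNA tags 2 are. One further item is not reported here. Members, lists and rules were chosen with earlier results of these data known.

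Counts were also simulated with counting error alone. Of those changed 2-fold, 40 of 40 miRNAs and 200 of 200 tags were called, and of unchanged ones 0 of 132 and 2 of 4276. The changed ones were drawn from the better read features, and differences between libraries were not simulated. These figures therefore give no error rate for the calls above. Alternatives were other scalings (TMM from edgeR 4.0.16 in R 4.3.3), read minimums, pseudocount, fold limit and tag rules. The tables were made in Python 3.11.15 with pandas 2.3.3, numpy 2.4.6 and scipy 1.17.1, and the plots with matplotlib 3.10.9.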

Additional observations from a re-analysis of the deposited data

Results flagged for a closer look

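Some tags hold 12 nt or more of the 3′ adapter. They were left out of the starts. They count in the totals, among the single tags and, unless stated, in the shares by length. At 3 h 79.8% of their reads (79.3 to 80.3) were in tags of 20 to 27 nt, against 17.9% at 24 h, 17.5% untreated and 12.1% at 1 h. They made up 0.187% of the 3 h reads and 0.220% of the 24 h reads, and they were 38 of the 439 tags lower at 24 h and 17 of the 838 higher. A tag of 24 nt among them had 1606 reads at 3 h and 94 at 24 h, and a tag of 42 nt had 0 and 400.

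Reads that differ by 1 base from the start of the most read miRNAs were left out of the miRNA levels. There were 119 pairs of a start and a substitution, in 9 distinct starts. Some pairs hold the same reads, such as G12T of let-7c-5p and A12T of let-7f-5p. T12C of miR-30a-5p had 468 and 478 reads per 1000 at 3 h and 24 h, so it need not be a variant of that miRNA. The median ratio of 24 h to 3 h was 1.03. Of the pairs, 3 were at least 5 times as frequent at 24 h, all of them at position 2, counted from 1 at the 5′ end. For miR-143-3p, G2C was found in 0.193 reads per 1000 at 3 h and 1.28 at 24 h, beside 0.247 untreated. For the start that let-7c-5p shares with let-7a-5p, G2C had 0.112 and 1.35 per 1000, beside 0.131 untreated. For miR-21-5p, A2T had 0.0731 and 0.606 per 1000, beside 0.0833 untreated. Their part in the levels above was not tested.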

How the results depend on the processing

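With 1 library a side, no result has a replicate check, and effects of Ang II and of the hours in culture cannot be separated. No paired analysis was possible because each group had 1 library and the labels carry no replicate numbers. Of 25 miRNA calls, 12 were kept with TMM factors, 12 with median-of-ratios factors and 22 when scaled to miRNA reads, and none changed sign there. The calls were 10 higher and 6 lower with TMM, 6 lower with median-of-ratios factors, and 3 higher and 12 lower with a minimum of 500 reads. They were 2 and 8 with a pseudocount of 10 RPM and 2 and 2 with a 2-fold limit. The mature sequence alone gave 5 higher and 12 lower, of which 3 and 9 were among the main calls. There miR-221-5p (0.083), miR-190a-5p (0.22) and miR-6329 (0.077) turned positive and miR-222-5p (-0.16) lost its call. The most read tags of these miRNAs end elsewhere. Tags higher and lower numbered 3625 and 1857 with a minimum of 20 reads, 170 and 110 with 500, 523 and 176 with the larger pseudocount and 519 and 158 with a 2-fold limit, and 201 were lower when merged by start. The other alternatives kept counts within 1.5 times. Added after seeing the data, the courses gave 5 early falls that returned, 34 late falls and 6 persisting falls when scaled to miRNA reads, and 6 early rises that returned and 6 late falls after centring. For 11 of the 25 calls the interval reached 1.5-fold, through few reads or, as for miR-378a-3p and miR-425-5p, a ratio at the limit.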
